A study of Mus musculus with 16 samples.

Results

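The genes described here encode the proteins of the cytosolic ribosome. They were taken by name from the gene annotation of the arrays: names beginning Rpl or Rps and a number, the P-stalk genes Rplp0 to Rplp2 and Rpsa, with the Rps6k kinases and pseudogene names left out. This gave 86 genes of 22328 on the arrays, 52 with large subunit names and 34 with small subunit names, each read from its brightest probe. The name rule also takes 7 paralogs whose names end in l or l1 and Rps19bp1, which encodes a protein that binds Rps19 and is not itself a ribosomal subunit. The genes were set by their names and not by measured values, although earlier results of these data were known. The brightest probe of each gene was found from its signal on these arrays.

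The study measured RNA on polysomes in mouse OT-1 T cells, whose transgenic T cell receptor recognises the ovalbumin peptide SIINFEKL. All cells came from lymph nodes of Rag-/- mice, which make no lymphocyte receptors of their own, heterozygous for OT-1, and were either WT or Lck-/- for the kinase that starts signalling at this receptor. Both groups received the peptide at 100 nM during 24 h. Cycloheximide, which freezes ribosomes on mRNA, was added at 100 µg/ml in the final 10 min. Gradients of 10 to 50% sucrose were cut into a sub-polysomal pool (fractions 1 to 5) and a polysomal pool (fractions 6 to 10), and 1.5 µl of RNA of each pool was labelled, a fixed volume and not a fixed mass. Each of 8 extracts, 4 WT and 4 Lck-/-, went on a pair of arrays of opposite dye, and the 16 arrays lay on 2 slides that each held both genotypes. The labels call the extracts biological replicates without saying whether animals or cultures were separate, and the p-values therefore rest on a spread that may be technical. The series title adds OFF to Lck-/-, which the labels do not explain, and no age or sex is given.

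Ribosomal protein mRNAs are among the most abundant mRNAs of a growing cell, and their translation is switched as a group. Most begin with a C followed by a stretch of pyrimidines, the 5′ terminal oligopyrimidine or TOP motif, which the protein LARP1 binds when the kinase mTOR is inactive. TOP mRNAs are then held off polysomes as free particles, and they move onto polysomes when mTOR is active, as it is after a T cell meets its antigen. A cell makes the proteins of both subunits in equal amounts, so members of the set usually move together.

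The sequences below show how far these starts share the motif. They are 30-base windows from the RefSeq assembly GRCm38.p6, written 5′ to 3′ on the strand of the gene, and the capitals mark the longest run of C and T that begins with C within 50 bases either side of the annotated start. The first 5 belong to genes with a C at the annotated start and at least 4 pyrimidines after it; in Rps15a and Rps21 the longest run lies elsewhere within these 50 bases and is the one shown. The next 3 hold a long run that lies away from the annotated start, and the last 4 belong to paralogs and to Rps19bp1.
Rps15a, chr7:118116141-118116170, minus strand: ccggcccaCTCTCTTTCTgccatcttccct
Rps6, chr4:86857347-86857376, minus strand: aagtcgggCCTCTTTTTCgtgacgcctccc
Rplp2, chr7:141447639-141447668, plus strand: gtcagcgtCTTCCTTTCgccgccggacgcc
Rps27, chr3:90213629-90213658, minus strand: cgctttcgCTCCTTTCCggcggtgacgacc
Rps21, chr2:180257399-180257428, plus strand: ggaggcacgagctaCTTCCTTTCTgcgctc
Rps25, chr9:44407684-44407713, plus strand: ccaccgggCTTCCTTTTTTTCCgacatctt
Rps7, chr12:28635910-28635939, minus strand: tgtccccaCCTCTTTTCTTCCgccacccgg
Rpl4, chr9:64173405-64173434, plus strand: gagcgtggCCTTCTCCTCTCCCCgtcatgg
Rpl22l1, chr3:28805503-28805532, plus strand: agcccgttCTCTTCCCacggctgcagctca
Rpl39l, chr16:10170194-10170223, plus strand: acccactgCCTCTCCCTagctcccaggcct
Rpl7l1, chr17:46782667-46782696, minus strand: gaggcgggCCTCTCTaccccgcccggtgag
Rps19bp1, chr15:80264330-80264359, minus strand: agctcctgCTCCagtttctgccgaggagcg

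A RefSeq window was found for 64 of the 86 genes. A run of at least 8 bases, each C or T and the first a C, on the strand of the gene and within 50 bases of the annotated start, was present in 53 of these 64 (82.8%), against 32.0% of all 27025 genes with a window. The narrower form, C at the annotated start with at least 4 pyrimidines after it, was present in 13 of the 64 (20.3%), against 3.01% of all genes. Annotated starts can lie some bases away from the start that cells use, so the absence of the narrower form says only that these letters are not at that base. Among the paralogs and Rps19bp1, 5 of 8 held the long run and 0 of 8 the narrower form.

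The arrays detected between 14619 and 50776 probes well above background in the polysomal channel and between 12531 and 30976 in the sub-polysomal channel. Each ratio given here is the log2 of the polysomal over the sub-polysomal signal after loess. Loess works by brightness, so a ratio compares an mRNA with mRNAs of similar brightness, and the members are among the brightest. A ratio below 0 need not mean less polysomal than the typical mRNA. On the first array of WT replicate 2 the members lay 0.61 above all genes before loess and had a median of -0.12 after it. On most arrays the members lay below all genes before loess too. Loess brought the median of all genes to between -0.05 and 0.15 on 15 of the 16 arrays. The exception was the first array of Lck-/- replicate 1, with a median of -0.25 over all genes and 0.00 over the members. That array also had the 50776 probes above background in the polysomal channel, where the next highest array had 26643. Without Lck-/- replicate 1 the count of members that rose in ratio in Lck-/- cells was 36 in place of 49. Over all 8263 genes tested it was 237 in place of 232. Lck was lower in Lck-/- extracts in both pools, with polysomal and sub-polysomal differences of -0.91 and -0.79 (limma adjusted p = 0.0106 and 0.00277), but stayed well above background on all 16 arrays. The labels do not say which part of Lck is changed, so this probe does not check the genotype. None of the 6 T cell markers (Cd3d, Cd3e, Cd3g, Cd247, Cd8a, Cd8b1) passed the test in ratio or in either level (limma; 0 of 6 at an unadjusted p below 0.05 in the ratio, 1 of 6 in each level). Of 19 markers of B cells, CD4 cells, myeloid cells, NK cells, stroma, endothelium and erythroid cells, 11 were well above background on at least 6 arrays and none of the 6 measured in the polysomal level or 5 in the sub-polysomal level passed the test (limma; 2 and 1 at an unadjusted p below 0.05). Cd4, Cd79b, Itgam and Csf1r were above background on all 16 arrays. The summed level of the 19 markers, in log2, ranged from 11.80 to 12.02 in WT and 11.70 to 12.33 in Lck-/- in the polysomal channel, and from 12.03 to 13.32 and 12.30 to 12.91 in the sub-polysomal channel. The ranges overlap, and the part of other cells in the results was not tested.

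The 2 arrays labelled as one extract disagreed in WT replicates 1 and 2. Over 8263 genes, the paired arrays of WT replicate 1 deviated from the genotype mean with a correlation of -0.84, those of WT replicate 2 with -0.83, and those of the remaining 6 extracts with 0.13 to 0.65. Between the first array of one and the dye swap of the other they correlated at 0.73 and 0.83. Each of these matching pairs also shares a slide, slide 1 for the first array of WT replicate 1 and slide 2 for that of WT replicate 2, so that exchanged labels and the slide cannot be told apart from the pairs alone. The 2 arrays of the remaining 6 extracts also lie on different slides. The ribosomal protein mRNAs show the same pattern: their median ratio was -2.34 and -0.34 on the 2 arrays labelled WT replicate 1, and -0.12 and -2.03 on the 2 arrays labelled WT replicate 2. Averages over the labelled pair lie close together, at -1.43 and -1.14, whereas with the dye swaps exchanged, called crossed dye swaps here, the medians of these extracts became -2.22 and -0.19. Exchanging them leaves the WT mean almost as it is and widens the WT spread, and the standard error of Rps15a, for example, went from 0.18 to 0.35. Why the arrays pair this way was not tested. Counts of calls over all members are therefore given with the labelled pairs, with crossed dye swaps, and without both extracts.

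**Figure D1:**
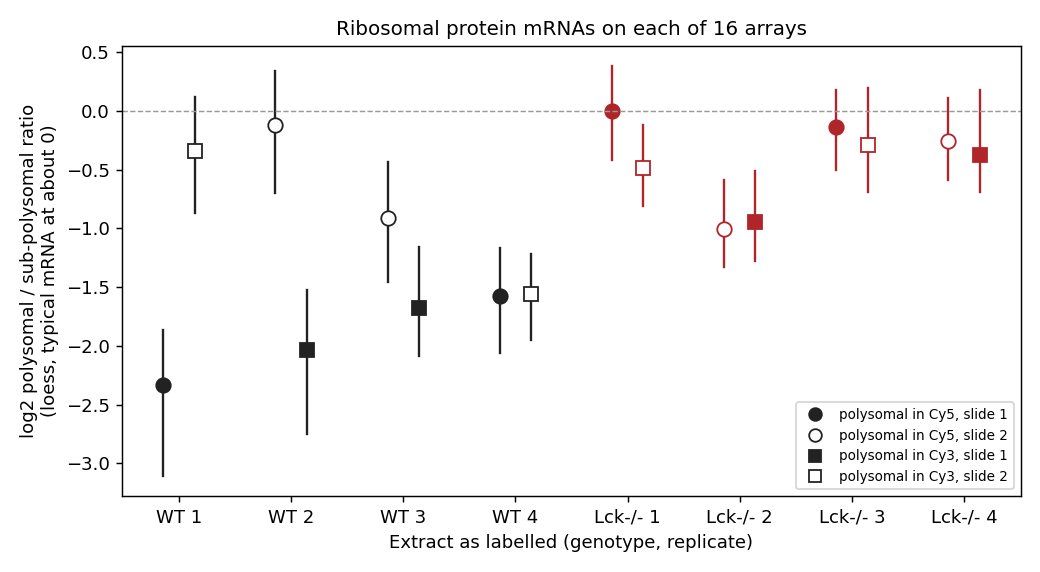
Median log2 polysomal over sub-polysomal ratio of the 83 measured ribosomal protein mRNAs on each of the 16 arrays (y axis, after loess) by extract as labelled (x axis); bars span the middle 50% of the members, circles have polysomal RNA in Cy5 and squares in Cy3, filled symbols are slide 1 and open symbols slide 2. The 2 arrays of WT replicate 1 lie 1.99 apart and those of WT replicate 2 lie 1.92 apart, more than the median difference of 1.02 between genotypes, and all 8 Lck-/- arrays lie at or below 0.00. After loess 0 stands for mRNAs of similar brightness.

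In WT cells nearly all ribosomal protein mRNAs had a ratio below 0 after loess. Of 83 members that passed the filter in both channels, 78 had a ratio below 0 at a limma adjusted p below 0.05, against 28.7% of all genes tested, and 0 lay above 0 (33.5% of all genes tested, 0 members at an unadjusted p below 0.05). With crossed dye swaps 65 members lay below 0, and without both doubted extracts 76, with 0 above 0 in either. All 83 WT means were below 0, from -3.03 for Rps12 to -0.03 for Rpl36al, and 14 members lay below -2. The median of the members was -1.36 ± 0.19 (SD, n = 4). Among the lowest in each subunit were Rpl12 (-2.75 ± 0.08) and Rpl41 (-2.31 ± 0.58), and Rps12 (-3.03 ± 0.17), Rps27 (-2.39 ± 0.43) and Rpsa (-2.27 ± 0.15), all SD with n = 4. The highest were mostly not core ribosomal genes: the paralogs Rpl36al, Rpl7l1 (-0.10 ± 0.15) and Rpl39l (-0.10 ± 0.21) in the large subunit, and the paralog Rps27l (-0.45 ± 0.67), Rps19bp1 (-0.46 ± 0.32) and Rps9 (-0.46 ± 0.22) in the small. The authors' deposited table keeps the overall level of each array and gives another sign to many: in WT 38 of 83 members lay above 0 and 4 below it (Rpl12, Rpl41, Rps12 and Rps27) at a limma adjusted p below 0.05. Against the median of all genes the members lay lower in every column of the authors' deposited table, by 1.29 to 1.59 in the 4 WT columns (members minus all genes: -1.48, -1.59, -1.29 and -1.44).

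In Lck-/- cells the shift below 0 was smaller. The median of the members was -0.44 ± 0.36 (SD, n = 4), 43 of 83 lay below 0 (29.2% of all genes tested) and 5 lay above it (26.9% of all genes tested) in the limma test. The 5 above 0 were Rpl10, Rpl19, Rpl27, Rpl8 and Rps9. With crossed dye swaps 16 members lay below 0 and 0 above it, and without WT replicates 1 and 2, whose spread enters the same fit, 40 and 2. The 4 extracts had medians of -0.20, -0.98, -0.25 and -0.33, and Lck-/- replicate 2 was the lowest of the 4 in 74 of the 83 members. Rpl19, chosen after its values were seen, had the highest mean of all, 0.66 ± 0.47 (SD, n = 4), and Rps12 again the lowest, -1.52 ± 0.73 (SD, n = 4).

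The comparison of the genotypes asks whether ribosomal protein mRNAs were loaded on polysomes differently without Lck. After loess 49 of 83 members rose in ratio in Lck-/- cells and 0 fell (limma adjusted p below 0.05; 77 higher and 2 lower at an unadjusted p below 0.05), against 2.81% and 1.05% of all genes tested. The median difference was 1.02 in log2, against -0.04 over all genes tested, and 80 of 83 members had a difference above 0. The 4 WT and 4 Lck-/- extracts did not overlap in 55 members that were higher in Lck-/- (5.72% of all genes tested) and in 1 member that was lower, Rpl39l (8.81%). With crossed dye swaps 1 member rose, Rps16 (41 of all 8263 genes tested), and 10 members did not overlap (2.31% of all genes tested). Without WT replicates 1 and 2 the count was 9 (84 of all 8263 genes tested), with a median difference of 1.09. Leaving out single extracts also moved it: 21 members rose without WT replicate 1, 17 without Lck-/- replicate 3 and 19 without Lck-/- replicate 4. Over all 8263 genes tested these counts were 109, 93 and 97.

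The slide moved with the size of the difference, and its part in the result was not tested beyond these values. On slide 1 the 4 WT arrays had member medians from -2.34 to -1.57 and the Lck-/- arrays from -0.94 to 0.00, without overlap. On slide 2 the WT arrays ranged from -1.56 to -0.12 and the Lck-/- arrays from -1.0013 to -0.26, so the groups overlapped. The median difference was 1.59 on slide 1, where 60 members rose, and 0.39 on slide 2, where 0 rose or fell. Of all 8263 genes tested, 219 rose and 9 fell on slide 1, and 60 rose and 8 fell on slide 2. With the slide as a term over all 16 arrays, 42 members rose and 1, Rpl39l, fell (245 and 191 of all 8263 genes tested). In each dye orientation alone the median difference was 1.02 and 1.00, with 0 calls in either. Over all 8263 genes tested, 36 and 30 rose and 0 fell.

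The direction depends on whether the overall level of the arrays is kept, so the differences describe these mRNAs relative to other mRNAs. Without normalization the median of all genes differed by -0.78 between genotypes and that of the members by -0.16, with 0 members higher and 13 lower. Of all 8263 genes tested, 40 were higher and 5940 lower in this setting. In the authors' deposited table, fitted as it stands, the medians were -1.15 and -0.54, with 0 members higher and 32 lower. Of all 8251 genes tested there, 25 were higher and 7425 lower. Centring each array on the genes tested gave 27 higher and 0 lower with a median of 0.66. Over all 8263 genes tested it gave 542 higher and 437 lower. Centring the columns of the authors' deposited table gave 31 higher and 0 lower with a median of 0.65. Over all 8251 genes it gave 435 higher and 282 lower. With the intensities that Agilent's own software had normalised, the median was 0.07 against -0.09 over all genes. In that setting 1 member, Rps15a, rose and 0 fell (73 and 104 of all 8263 genes tested). In every one of these settings the median of the members lay above the median of all genes.

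**Figure D2:**
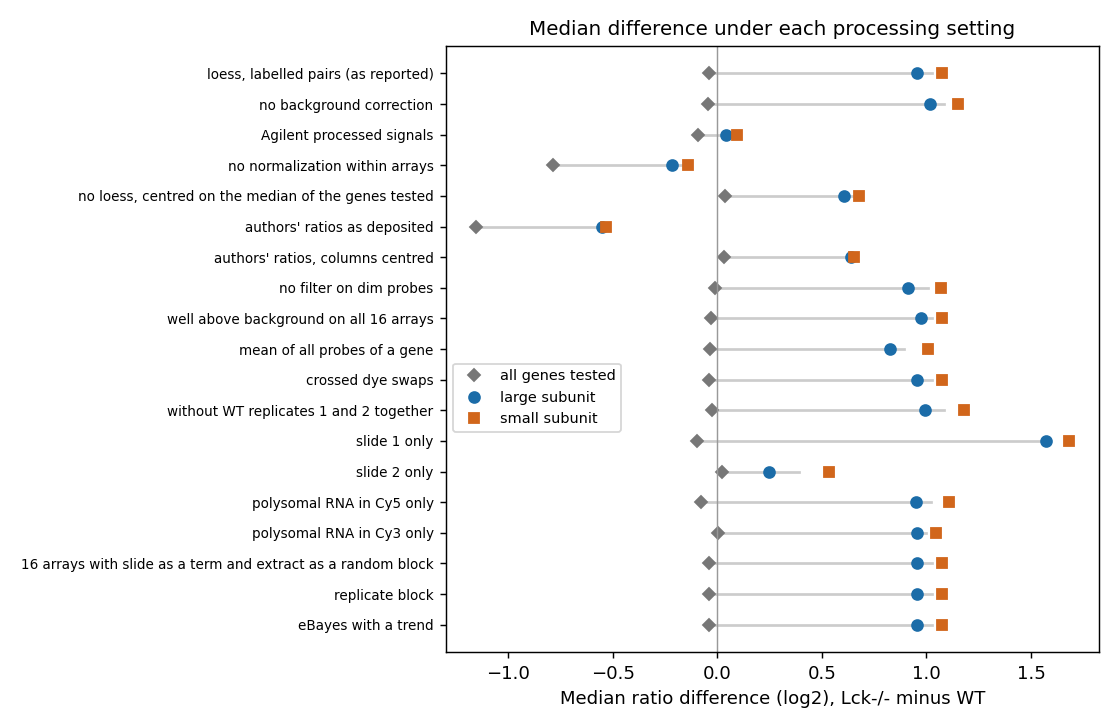
Median difference in log2 ratio, Lck-/- minus WT (x axis), of large subunit members (circles), small subunit members (squares) and all genes tested (diamonds) under each processing setting (y axis); the grey line joins all genes to all members. Members lie above all genes in each setting shown, but below 0 without normalization (-0.16) and in the authors' ratios as deposited (-0.54), and only slightly above 0 with Agilent processed signals (0.07).

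Members of both subunits rose after loess, while without normalization the median differences were -0.22 (large) and -0.14 (small) and in the authors' deposited table -0.55 and -0.53. Among 50 measured large subunit members 24 rose (48%), with a median difference of 0.96, and among 33 measured small subunit members 25 rose (75.8%), with a median of 1.07. Of all genes tested 2.81% rose. No member of either fell (limma; 2 large and 0 small subunit members lower at an unadjusted p below 0.05). These counts are for the labelled pairs. With crossed dye swaps 1 member in all rose, Rps16 of the small subunit, and on slide 2 alone 0 rose. Whether the shares of 48% and 75.8% differ was not tested, since members of one extract share its RNA. The medians of the large subunit members were -1.20 ± 0.23 in WT and -0.36 ± 0.32 in Lck-/-, and those of the small subunit members -1.56 ± 0.14 and -0.50 ± 0.40 (SD, n = 4 each). Small subunit members thus had the lower median ratio after loess, on 15 of 16 single arrays, which need not mean that they were less polysomal. The gap between the subunits, small minus large, was -0.36 ± 0.09 in the 4 WT extracts and -0.14 ± 0.13 in the 4 Lck-/- extracts (SD), with values of -0.36, -0.46, -0.35 and -0.25 in WT and -0.13, -0.28, -0.19 and 0.04 in Lck-/-. One Lck-/- extract, replicate 2, overlapped the WT range in this gap. With crossed dye swaps the gaps of WT replicates 1 and 2 became -0.18 and -0.39, and 2 Lck-/- extracts, replicates 2 and 3, lay within the WT range.

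**Figure D3:**
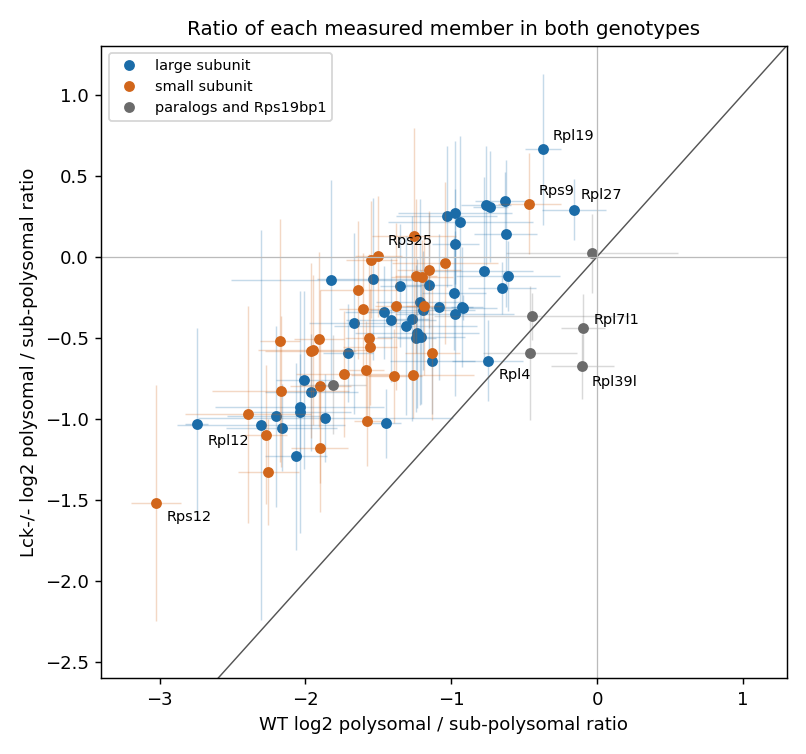
Mean log2 polysomal over sub-polysomal ratio of each of the 83 measured members in WT (x axis) and Lck-/- (y axis), with bars of 1 SD over 4 extracts as labelled; the diagonal marks equal ratios. After loess 80 of 83 members lie above the diagonal and 3 (Rpl39l, Rpl7l1 and Rps19bp1) below it; without normalization and in the authors' ratios as deposited most members would lie below it.

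The largest differences in the large subunit belonged to Rpl12, Rpl27a, Rpl31 and Rpl37. Rpl12 is a protein of the stalk base, where elongation factors bind. Its ratios were -2.73, -2.65, -2.85 and -2.75 in the WT extracts and -1.12, -1.83, -0.65 and -0.52 in the Lck-/- extracts. All Lck-/- values lay above all WT values, and the difference was 1.72 (SE 0.24, limma adjusted p = 0.00459). The probe lies at chr2:32819082-32819298 of mm9, across an intron. Rpl27a had -2.79, -1.29, -1.38 and -1.86 in WT and -0.03, -1.04, 0.21 and 0.30 in Lck-/-, 1.69 higher on average (SE 0.36, limma adjusted p = 0.0272). Its WT replicate 1 stands apart and rests on 1 array, since the dye swap spot was left out as an outlier; without this extract the Rpl27a ratio difference was 1.37 and did not pass (limma adjusted p = 0.0617). Rpl31 rose by 1.40 (SE 0.26, limma adjusted p = 0.016) and Rpl37 by 1.28 (SE 0.23, limma adjusted p = 0.0154). With crossed dye swaps the groups overlapped in Rpl12, Rpl27a, Rpl31 and Rpl37, and none passed (limma adjusted p = 0.388, 0.402, 0.695 and 0.458). On slide 2 alone the Rpl31 difference was -0.0906.

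In the small subunit Rps7, Rps15a, Rps12 and Rps25 differed most. Rps15a is a core protein of the subunit that binds its ribosomal RNA. Its WT ratios were -1.54, -1.33, -1.76 and -1.57 and its Lck-/- ratios 0.29, -0.53, 0.03 and 0.14. The groups did not overlap, and the difference of 1.53 (SE 0.18) had the smallest limma adjusted p of all members, 0.0016. Rps25, which many viral internal ribosome entry sites need, had -1.50, -1.38, -1.39 and -1.73 in WT and -0.11, -0.48, 0.25 and 0.35 in Lck-/-, 1.50 higher on average (SE 0.18, limma adjusted p = 0.0018). Its Lck-/- mean was 0.00. Rps7 was at -2.27, -2.13, -2.01 and -2.31 in WT and at -0.60, -1.54, -0.10 and 0.16 in Lck-/-, 1.66 higher on average (SE 0.30, limma adjusted p = 0.0155). Rps12 rose by 1.50 (SE 0.30, limma adjusted p = 0.0209) and had the lowest mean ratio of the members in both genotypes. With crossed dye swaps the differences of Rps15a, Rps25, Rps7 and Rps12 stayed the same and none passed (limma adjusted p = 0.118, 0.442, 0.562 and 0.193). The groups then overlapped in each of these genes.

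Rps16, the member that rose with either pairing, was singled out after its values were seen. Its labelled WT ratios were -1.25, -1.06, -1.48 and -1.01 and its Lck-/- ratios -0.02, -0.46, 0.06 and -0.09. The difference was 1.07 with a limma adjusted p of 0.00502 for the labelled pairs and 0.0358 with crossed dye swaps, where the WT values became -1.33, -0.99, -1.48 and -1.01. Rplp0, Rplp1 and Rps2 (the last also named after the fact) came next with crossed dye swaps, each at a limma adjusted p of 0.0939.

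The P-stalk, formed by Rplp0 with copies of Rplp1 and Rplp2, recruits the factors that drive elongation. Rplp0 had ratios of -1.83, -1.66, -2.41 and -1.94 in WT and -0.32, -1.15, -0.89 and -0.99 in Lck-/-, 1.12 higher on average (SE 0.21, limma adjusted p = 0.016). Rplp1 rose by 1.11 (SE 0.20, limma adjusted p = 0.0155) and Rplp2 by 0.60 (SE 0.14, limma adjusted p = 0.0343). In these 3 genes the genotypes did not overlap, with the labelled pairs or with crossed dye swaps. With crossed dye swaps none of these 3 passed (limma adjusted p = 0.0939, 0.0939 and 0.37). The groups of Rplp2 then nearly met, at -0.44 in WT and -0.42 in Lck-/-. Rps6, the phosphorylated target of the S6 kinases, had -1.71, -1.40, -1.39 and -1.73 in WT and -0.59, -1.04, -0.22 and -0.37 in Lck-/-, 1.00 higher on average (SE 0.18, limma adjusted p = 0.0155). Rpsa, also known as the laminin receptor, rose by 1.17 (SE 0.20, limma adjusted p = 0.0108). Rps27a, made as a fusion with ubiquitin, rose by 1.07 (SE 0.19, limma adjusted p = 0.0135), and its Lck-/- replicate 2 lay at -0.62 where the other Lck-/- extracts had 0.06 to 0.16. With crossed dye swaps Rps6, Rpsa and Rps27a did not pass (limma adjusted p = 0.568, 0.103 and 0.208). Rpl41, the smallest ribosomal protein, differed by 1.27 without passing (SE 0.51, limma adjusted p = 0.197): its Lck-/- extracts spread from -2.28 to 0.61.

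Some core members moved little. Rpl4, a large subunit protein that lines the exit tunnel, had ratios of -0.75, -0.40, -0.92 and -0.91 in WT and -0.83, -0.68, -0.28 and -0.78 in Lck-/-. The groups overlapped in part, and the difference was 0.11 (SE 0.16, limma adjusted p = 0.761). Rps21 was among the core small subunit members with the smallest differences, at 0.54 (limma adjusted p = 0.193), and Rpl29 differed by 0.42 (limma adjusted p = 0.118) without overlap of the groups. With crossed dye swaps the groups of Rpl29 overlapped. Among the 46 core large subunit members differences ran from 0.11 to 1.72, and among the 31 measured core small subunit members from 0.54 to 1.66.

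**Figure D4:**
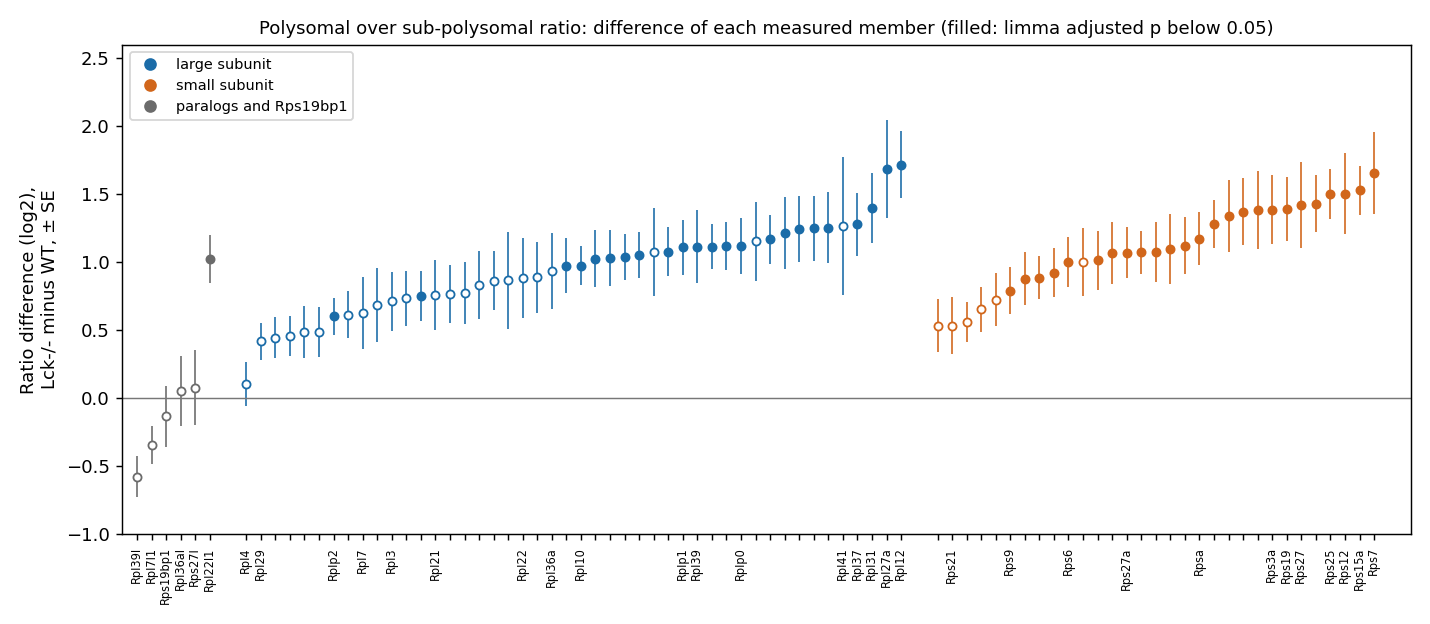
Difference in log2 polysomal over sub-polysomal ratio, Lck-/- minus WT (y axis, bars of 1 SE from limma), of each of the 83 measured members (x axis) in order of size within paralogs, large and small subunit; filled points had a limma adjusted p below 0.05, and only members named by the rule for named genes are labelled, with some left out. After loess differences run from -0.58 (Rpl39l) to 1.72 (Rpl12); without normalization and in the authors' ratios as deposited the median difference is below 0.

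Of the 7 paralogs 5 were measured. Their median difference was 0.05, and 1 of 5 rose, 0 fell (limma; 1 higher and 2 lower at an unadjusted p below 0.05). Rpl39l, a paralog of Rpl39 known for its expression in testis, had ratios of 0.02, -0.03, 0.03 and -0.42 in WT and -0.96, -0.63, -0.48 and -0.64 in Lck-/-. Every Lck-/- value was below every WT value, and the difference of -0.58 did not pass (SE 0.15, limma adjusted p = 0.0597). Its parent Rpl39 rose by 1.11 (SE 0.27, limma adjusted p = 0.0474). Rpl7l1, a paralog of Rpl7, differed by -0.34 (limma adjusted p = 0.205), where Rpl7 differed by 0.63 (limma adjusted p = 0.215). Rpl36al and Rps27l differed by 0.05 and 0.08 (limma adjusted p = 0.933 and 0.903), against 0.94 for Rpl36a (limma adjusted p = 0.0978) and 1.42 for Rps27 (SE 0.31, limma adjusted p = 0.032). Rpl39l and Rpl7l1 were far dimmer than their parents, with a mean log2 signal of 8.35 and 9.68 against 16.02 and 16.56. A dimmer probe of Rpl39, at 9.48, gave a difference of 0.49. Rpl36al and Rps27l were nearer, at 14.06 and 15.14 against 15.39 and 16.53. Loess works by brightness, and its part in these contrasts was not tested. With crossed dye swaps neither Rpl39 nor Rps27 passed (limma adjusted p = 0.402 and 0.465). No test of a paralog against its parent was made.

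Rpl22l1 was the paralog that rose. It can replace Rpl22, a protein needed for the development of several T cell lineages, when Rpl22 is missing. Rpl22l1 had ratios of -1.63, -1.60, -2.01 and -2.01 in WT and -0.50, -1.20, -0.82 and -0.63 in Lck-/-, 1.02 higher on average (SE 0.17, limma adjusted p = 0.0114) without overlap. With crossed dye swaps its groups overlapped and it did not pass (limma adjusted p = 0.226). Rpl22 had -1.48, -1.14, -0.74 and -1.89 in WT and -0.14, -1.25, -0.13 and -0.17 in Lck-/-, 0.89 higher on average (SE 0.29, limma adjusted p = 0.131). Rps19bp1 differed by -0.13 (SE 0.22, limma adjusted p = 0.779). Rpl10l and Rpl3l, paralogs known from testis and from heart and skeletal muscle, were above background in both channels on no array, and Rpl10 and Rpl3 differed by 0.98 (limma adjusted p = 0.00522) and 0.71 (limma adjusted p = 0.1).

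The 2 pools were also compared as levels after loess and Aquantile, relative to other mRNAs. Each level is the mean log2 signal of both channels plus (polysomal) or minus (sub-polysomal) the same share of the loess ratio. The 2 level tests thus share that ratio and are not separate evidence for it. Without normalization the median differences of the members turned sign. In the sub-polysomal pool 44 of 84 measured members fell in Lck-/- cells and 0 rose (limma adjusted p below 0.05; 56 lower and 1 higher at an unadjusted p below 0.05), against 10.8% and 9.49% of all genes tested. In the polysomal pool 21 of 84 rose and 0 fell (limma; 41 higher and 1 lower at an unadjusted p below 0.05), against 5.98% and 9.24%. The median differences of the members were -0.48 and 0.48, against 0.05 and 5e-04 over all genes. The genotypes did not overlap in 49 members that were lower in the sub-polysomal pool (12.3% of all genes tested), 0 that were higher there (13.9%), 26 that were higher in the polysomal pool (10%) and 0 that were lower there (12.9%). There were 9 members that passed in both pools, 35 fell in the sub-polysomal pool alone and 12 rose in the polysomal pool alone. The mean of both levels had a median difference of -0.0002 over the members, from -1.06 to 0.63. Aquantile gives this mean the same distribution on every array, and the members lie near its bright end. A median near 0 therefore does not show that the amount of these mRNAs was equal. Without Aquantile the median differences were 0.34 in the polysomal and -0.62 in the sub-polysomal level. Fewer cells and less RNA per cell cannot be told apart in these bulk pools.

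The count of sub-polysomal calls ran from 32 to 48 when single extracts were left out, and that of polysomal calls from 3 to 33. With crossed dye swaps 18 members fell in the sub-polysomal pool and 1, Rpl8, rose in the polysomal pool (648 and 209 of all genes tested). Dropping both doubted WT extracts gave 32 and 0 (670 and 44). Centring without loess gave 38 and 0 (1266 and 834). Without normalization 11 members rose and 5 fell in the sub-polysomal pool, where 3646 of all genes tested rose and 340 fell. In the polysomal pool 0 members rose and 9 fell in that setting, and 84 and 2836 of all genes tested. On slide 2 alone 1 member fell in the sub-polysomal pool, and on slide 1 64 did (198 and 1228 of all genes tested). The polysomal count also moved with single extracts: it was 8, 5, 8 and 7 without WT replicates 1 to 4, and 33, 3 and 3 without Lck-/- replicates 2, 3 and 4. Over all 10292 genes tested, 361, 231, 218 and 384 rose, and 517, 283 and 164.

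Rps19, the gene most often mutated in Diamond-Blackfan anaemia, had the largest sub-polysomal fall. Its sub-polysomal log2 levels were 15.28, 14.94, 16.24 and 15.43 in WT and 14.19, 13.90, 14.03 and 13.41 in Lck-/-. The groups did not overlap, and the level fell by 1.59 (SE 0.26, limma adjusted p = 0.00346). Its polysomal level differed by -0.19 (limma adjusted p = 0.667). Rpl21 fell by 1.44 in the sub-polysomal pool (SE 0.24, limma adjusted p = 0.00367), and its polysomal difference was the lowest of all members, -0.68 without passing (limma adjusted p = 0.141). Rpl31 and Rps7 also fell there, with differences of -1.28 and -1.26 (limma adjusted p = 0.00315 and 0.00321) with polysomal differences of 0.12 and 0.40 that did not pass (limma adjusted p = 0.76 and 0.239). For these 4 genes the sub-polysomal level passed the test and the polysomal level did not.

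Rps3a, Rpl12 and Rps12 rose most in the polysomal pool among those that passed. Rps3a had polysomal log2 levels of 15.27, 15.09, 15.68 and 14.70 in WT and 16.17, 15.50, 16.48 and 16.57 in Lck-/-, 0.99 higher on average (SE 0.26, limma adjusted p = 0.027). Lck-/- replicate 2 overlapped the WT range. Rpl12 and Rps12 each rose by 0.87 (SE 0.22 and 0.23, limma adjusted p = 0.0249 and 0.0298), and both also fell in the sub-polysomal pool, with differences of -0.85 and -0.63 (limma adjusted p = 0.00478 and 0.0112). Rpl22l1 had a polysomal difference of 0.86 that did not pass (SE 0.45, limma adjusted p = 0.214); its WT replicate 1 lay at 12.24 and the other WT extracts at 14.51 to 14.79. Rps4y2 was above background in both channels on too few arrays for a ratio, and its levels differed by 0.54 and 0.72 (limma adjusted p = 0.175 and 0.0526).

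**Figure D5:**
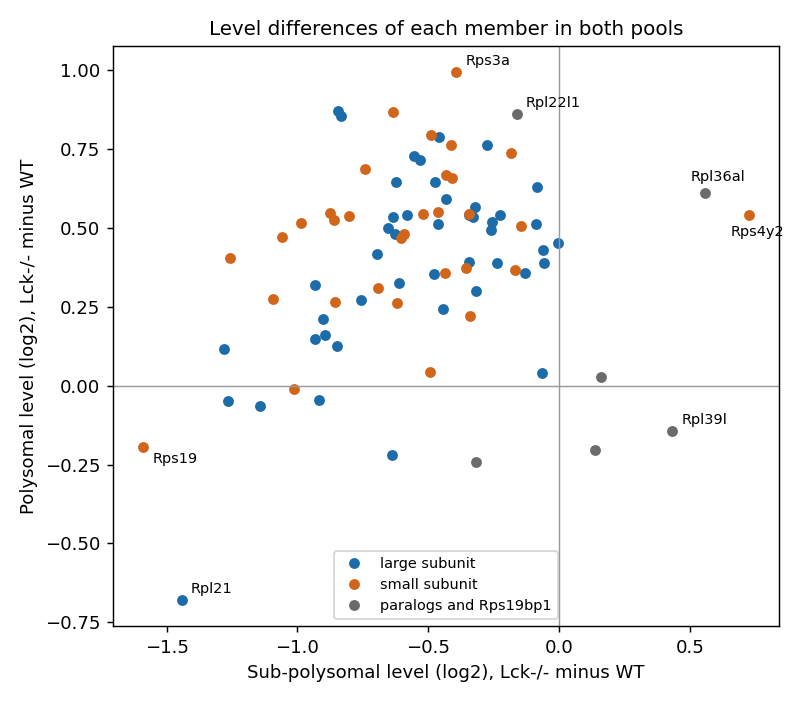
Difference in log2 level, Lck-/- minus WT, in the sub-polysomal pool (x axis) and the polysomal pool (y axis) for the 84 members measured in both. Most members lie in the upper left, lower in the sub-polysomal and higher in the polysomal pool, with medians of -0.48 and 0.48; without normalization these medians were 0.09 and -0.12.

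Members that rose were found both with and without a pyrimidine run. Among core members with a window, the 48 with a run of at least 8 had a median difference of 1.05 and 30 rose, and the 8 without one had a median of 0.95 and 6 rose. The 13 with the narrower form had a median of 0.87 and 7 rose, and the 43 without it 1.07 and 29. Rps15a and Rps21, whose runs are shown above, both hold the narrower form and lay near opposite ends of the small subunit, at 1.53 and 0.54, and Rpl4, the core member that moved least, holds a run of 15 pyrimidines. These values are a description, with no test.

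Other mRNAs known for TOP starts also rose after loess, with the same turn of sign when the overall array level was kept (median difference -0.50 without normalization and -0.78 in the authors' deposited table). Of 22 such mRNAs (elongation factors, subunits of initiation factor eIF3, Pabpc1, Tpt1 and others), 10 rose in ratio and 0 fell (limma; 18 higher and 0 lower at an unadjusted p below 0.05), with a median difference of 0.69, a count of 2 with crossed dye swaps, and medians of -0.87 in WT and -0.14 in Lck-/-. Tpt1, which encodes the translationally controlled tumour protein, had -2.41, -2.14, -2.92 and -2.21 in WT and -1.19, -1.10, -0.95 and -0.79 in Lck-/-, 1.42 higher on average (SE 0.18, limma adjusted p = 0.00214). The snoRNA host gene Snhg1, which is not translated into a known protein, rose by 1.35 (SE 0.25, limma adjusted p = 0.0171). At the low end Eif4b and Eef1d differed by -0.13 and -0.00 (limma adjusted p = 0.75 and 0.992).

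The mRNAs of proteins that act on TOP translation gave no calls in ratio. Of 12 measured regulators, mTOR complex subunits, their inhibitors, Larp1 and the cap-binding proteins among them, 0 rose or fell (limma; 1 higher at an unadjusted p below 0.05), with a median of 0.04. Their ends were Eif4e and Larp1, at 0.39 and 0.30 (limma adjusted p = 0.107 and 0.267), and Rheb and Cnbp, at -0.33 and -0.18 (limma adjusted p = 0.292 and 0.568). In levels 1 regulator rose and 1 fell, each in both pools. Larp1 rose by 0.88 in the polysomal and 0.58 in the sub-polysomal pool (limma adjusted p = 0.01 and 0.0104). Rps6kb2, which encodes an S6 kinase, differed by -0.53 and -0.61 (limma adjusted p = 0.0495 and 0.0089) and was not measured in ratio. None of 10 measured chaperones and import factors of ribosomal proteins passed (limma; 2 higher and 1 lower at an unadjusted p below 0.05), with a median of 0.13. The mRNAs of mitochondrial ribosomal proteins, which build another ribosome, had a median difference of -0.13 over 75 genes, with 0 higher and 2 lower (limma; 1 higher and 17 lower at an unadjusted p below 0.05).

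With the labelled pairs Rps19, Rps3a and Rpl10 rose without overlap of the groups. With crossed dye swaps the groups overlapped in each of these genes and none passed (limma adjusted p = 0.733, 0.501 and 0.252). Rps19 had ratios of -1.81, -1.75, -1.92 and -2.14 in WT and -0.70, -1.17, -0.26 and 0.08 in Lck-/-, 1.40 higher on average (SE 0.24, limma adjusted p = 0.0109). Rps3a had -2.03, -1.85, -1.62 and -2.36 in WT and -0.55, -1.35, -0.26 and -0.15 in Lck-/-, 1.39 higher on average (SE 0.25, limma adjusted p = 0.016). In both genes Lck-/- replicate 2 lay nearest to the labelled WT extracts without reaching them, and on slide 2 alone the Rps19 difference was -0.19. Rpl10, which joins the large subunit last and lies near its catalytic centre, had -0.70, -0.35, -0.83 and -0.65 in WT and 0.26, 0.13, 0.48 and 0.50 in Lck-/-. It was one of 3 members with all 4 Lck-/- ratios above 0, with Rpl19 and Rpl27, which were named after their values were seen. In 77 members all 4 WT ratios lay below 0, and in 44 all 4 Lck-/- ratios did.

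Several probes can stand for the same gene, and they mostly ran the same way. Of 57 members with more than 1 probe that passed, all probes had the same sign in 56, with a median range of 0.18 between probes. Probes disagreed in size for Rps25 (0.22 to 1.50), Rpl27a (0.35 to 1.69), Rpl31 (0.34 to 1.40) and Rpl22 (0.06 to 0.89), where the brightest probe gave the highest value. The probes of Rps27 and Rps29 are annotated on chromosomes 9 and 2 of mm9, away from the genes on chromosomes 3 and 12. Ribosomal protein genes have many processed pseudogenes of near-identical sequence, so signal of single members can be shared with such copies.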

How the data were processed

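Polysomal and sub-polysomal RNA of 4 WT and 4 Lck-/- extracts was hybridised to 16 two-colour Agilent arrays. The deposited scanner files hold probe intensity from Agilent Feature Extraction 10.7.3.1, per the file headers, with probe positions of mm9. Their background and outlier flags, other per-spot columns, were used as deposited. The authors' deposited log2 ratios were used as an alternative; limma is named, without a version, in the submitters' processing notes.

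Intensities were corrected with normexp (offset 50) and loess in limma 3.58.1 (R 4.3.3, data.table version 1.17.8), with Aquantile for the levels. Control and outlier spots had no weight in loess. The 2 arrays of each extract were averaged. Of 62976 spots, 3671 were controls. Genes were read from their brightest probe and tested if 6 or more of the 8 arrays per genotype had both channels well above background (for levels, the tested channel in either genotype). lmFit and eBayes were run over 8 extracts, with Benjamini-Hochberg adjustment over all genes tested (8263 for the ratio, 10292 and 9703 for the levels) and a threshold of 0.05. No ribosomal protein probe was saturated.

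Named genes were, per subunit, the 4 highest and 4 lowest ratio differences, the 3 highest and 3 lowest WT ratios and the 2 highest and 2 lowest differences of each level, with the P-stalk genes, Rpsa, Rps6, Rps27a, Rpl41, Rps19bp1, the paralogs and their parents, Lck, and the 2 highest and 2 lowest of each TOP list. The members and lists were chosen with earlier results of these data known. Replicate numbers did not pair the samples (correlations of 0.06, -0.17, 0.26 and -0.24 between WT and Lck-/- of one number). The number of arrays limits the precision. The code was tested on simulated data. Alternatives changed the background correction, normalization, filter, probe rule, pairing of dye swaps, slide, dye and extracts. Values of some genes that the rule names are not reported here.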

Additional observations from a re-analysis of the deposited data

Results flagged for a closer look

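In 8 of 92 groups of 4 extracts, 1 extract lay apart from the other extracts by Dixon's criterion. Chance gives about 1 in 20 independent groups, but these groups share the same extracts and overlapping genes, so that rate cannot judge this count. Most of the 8 concern Lck-/- replicate 2, the Lck-/- extract whose ribosomal protein mRNAs lay closest to WT. Its median ratio over all members was -0.98, against -0.33 to -0.20 in the other Lck-/- extracts. Its median polysomal level was 15.80, against 16.25 to 16.30, and its median sub-polysomal level 16.83, against 16.51 to 16.55. Its median ratio over the small subunit was -1.10, against -0.31 to -0.29. Single genes showed it too: Rpl22 lay at -1.25, against -0.17 to -0.13, and Rps27a at -0.62, against 0.06 to 0.16. Without this extract 66 members rose in ratio and 33 in the polysomal level, in place of 49 and 21. Over all genes tested these counts were 286 and 517, in place of 232 and 615. In WT, the small subunit's median sub-polysomal level was 16.99 in replicate 2, against 17.25 to 17.29, and the ratio of Rpl39l was -0.42 in replicate 4, against -0.03 to 0.03. The cause of these values was not tested.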

How the results depend on the processing

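With 8 extracts and crossed dye swaps in doubt, the counts of calls are uncertain. The median difference turned sign with the processing, from -0.54 in the authors' ratios as deposited to 1.59 on slide 1. Crossed dye swaps leave it unchanged by design. It stayed between 0.93 and 1.20 when single extracts were left out. Over these, 17 to 66 members were called in the ratio, 3 to 33 in the polysomal level, 32 to 48 in the sub-polysomal level, and 76 to 78 (WT) and 39 to 48 (Lck-/-) against 0. The fit with the replicate number as a block called 37 members in the ratio, 16 in the polysomal and 35 in the sub-polysomal level. Causes of the changes below were not tested.

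Agilent processed signals gave 1 call in the ratio, a median difference of 0.0662, 49 calls against 0 in WT, 0 in the polysomal and 12 in the sub-polysomal level. Without normalization there were 13 (all lower), a median of -0.16, 39 in WT and 31 in Lck-/- against 0, 9 polysomal and 16 sub-polysomal. Centring without loess gave 27, a median of 0.66 and 0 polysomal; levels without Aquantile gave 0 polysomal. The authors' ratios gave 32 (all lower), a median of -0.54, 42 in WT and 26 in Lck-/-, and centred 31 with a median of 0.65. Crossed dye swaps gave 1, 16 in Lck-/-, 1 polysomal and 18 sub-polysomal. Without WT replicates 1 and 2 there were 9 and 0 polysomal. Slide 1 gave 25 in Lck-/-, a median of 1.59 and 4 polysomal. Slide 2 gave 0, a median of 0.39, 47 in WT, 3 polysomal and 1 sub-polysomal. Polysomal RNA in Cy5 gave 0, 9 in Lck-/-, 0 polysomal and 10 sub-polysomal, and in Cy3 0, 29, 0 and 11. A trend in eBayes gave 13 polysomal. Over all genes tested, 5940 of 8263 were lower in ratio without normalization and 7425 of 8251 in the authors' ratios as deposited.

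These ratio differences of named genes turned sign. With Agilent processed signals: Rpl10 -0.13, Rpl22 -0.0689, Rpl29 -0.62, Rpl3 -0.17, Rpl36al -0.15, Rpl4 -0.33, Rpl7 -0.23, Rplp2 -0.44, Rps27a -0.0621, Rps27l -0.43 and Rps9 -0.23. Without normalization: Rpl10 -0.20, Rpl21 -0.22, Rpl22 -0.30, Rpl22l1 -0.10, Rpl29 -0.73, Rpl3 -0.48, Rpl36a -0.18, Rpl36al -1.04, Rpl39 -0.0217, Rpl4 -1.003, Rpl7 -0.55, Rplp0 -0.11, Rplp1 -0.0944, Rplp2 -0.65, Rps21 -0.54, Rps27a -0.15, Rps27l -1.01, Rps6 -0.16, Rps9 -0.39 and Rpsa -0.0745. In the authors' ratios as deposited: Rpl10 -0.52, Rpl12 -0.0637, Rpl21 -0.39, Rpl22 -0.74, Rpl22l1 -0.13, Rpl29 -1.09, Rpl3 -0.74, Rpl31 -0.11, Rpl36a -0.52, Rpl36al -1.18, Rpl37 -0.34, Rpl39 -0.31, Rpl4 -1.29, Rpl41 -0.42, Rpl7 -0.93, Rplp0 -0.54, Rplp1 -0.50, Rplp2 -1.08, Rps12 -0.26, Rps21 -0.85, Rps25 -0.0235, Rps27 -0.13, Rps27a -0.53, Rps27l -1.36, Rps3a -0.31, Rps6 -0.52, Rps9 -0.77 and Rpsa -0.54. Centring without loess: Rpl36al -0.22, Rpl4 -0.18 and Rps27l -0.20; authors' centred: Rpl4 -0.10 and Rps27l -0.17. Without WT replicates 1 and 2: Rpl36al -0.11. Slide 1: Rps19bp1 0.34. Slide 2: Rpl21 -0.77, Rpl29 -0.84, Rpl31 -0.0906, Rpl36al -0.55, Rpl4 -0.65, Rps19 -0.19 and Rps27l -0.26. Leaving out single extracts: Rps19bp1 -0.26 to 0.0577, Rpl36al -0.12 to 0.34, Rpl4 -0.0152 to 0.22 and Rps27l -0.24 to 0.28.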
